A study of Homo sapiens with 8 samples.

Results

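The NODAL pathway genes described here are NODAL, LEFTY1, LEFTY2, TDGF1, GDF3, FOXH1 and CER1. All peaks overlapping the span of 1 of these 7 genes, extended by 50 kb on either side (GENCODE 44, GRCh38), were merged over the libraries, which gave 129 regions of the 285909 merged regions on chromosomes 1 to 22 and X. The windows of LEFTY1 and LEFTY2 overlap and share 15 regions. The assay was ATAC-seq, in which a transposase cuts and tags open DNA, and the cells were RUES2, a long-established line of human embryonic stem cells, taken through directed cardiac differentiation. The stages were hESC (day 0), mesoderm (MES, day 2), cardiac progenitor (CP, day 5) and cardiomyocyte (CM, day 14), each with 2 libraries. Day 0 cells had already spent a day in E8 medium with the GSK3 inhibitor CHIR-99021, which activates Wnt signalling. From day 0 the cells received CHIR-99021 in RPMI with albumin and ascorbic acid, then the Wnt inhibitor Xav-939, and later RPMI with B27. The protocol names no added NODAL or Activin. All libraries come from 1 cell line, and the labels do not say whether the 2 libraries of a stage are separate differentiations, so p-values measure the spread between these libraries.

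NODAL is a secreted ligand of the TGF-beta family that signals through activin receptors and SMAD2 and SMAD3. GDF3 is a related ligand, TDGF1 (CRIPTO) is the co-receptor that NODAL needs, and FOXH1 is a DNA-binding partner of the activated SMADs. LEFTY1, LEFTY2 and CER1 are secreted inhibitors, and several of these genes are themselves targets of the signal, which forms feedback loops. In the embryo the pathway patterns mesoderm and endoderm, and in human pluripotent cells it helps to hold the undifferentiated state.

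Short sequences are shown for the CER1 promoter and a selection of regions. These regions had peaks in MES and not in hESC, or in hESC and not in CM. Each sequence shown holds a match to the letters below, but other such regions held none. They include those 7.9 kb and 9.9 kb upstream of LEFTY2 and those 18.9 kb and 30.4 kb upstream of CER1. Others lay around TDGF1 and GDF3, and the NODAL promoter held no match either. Each region sequence is the 300 bases centred on the summit of its highest peak, plus strand of GRCh38. The CER1 promoter is the 250 bases before the RefSeq start (GRCh38.p14), on the minus strand. Capitals mark matches, on either strand, to FOXH1 letters (AATCCACA or AATACACA), a POU octamer (ATGCAAAT), T-box letters (AGGTGTGA), TCF/LEF letters (CTTTGAT) or GATA letters (AGATAA), of which none contains another. Distances are from the start of the canonical transcript.
CER1 promoter, chr9:14722734-14722983: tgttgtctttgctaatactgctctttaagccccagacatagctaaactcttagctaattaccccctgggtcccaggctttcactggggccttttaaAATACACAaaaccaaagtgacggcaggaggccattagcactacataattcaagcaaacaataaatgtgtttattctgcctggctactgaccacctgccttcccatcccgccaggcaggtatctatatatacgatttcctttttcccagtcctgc
CER1 0.7 kb upstream, chr9:14723360-14723659: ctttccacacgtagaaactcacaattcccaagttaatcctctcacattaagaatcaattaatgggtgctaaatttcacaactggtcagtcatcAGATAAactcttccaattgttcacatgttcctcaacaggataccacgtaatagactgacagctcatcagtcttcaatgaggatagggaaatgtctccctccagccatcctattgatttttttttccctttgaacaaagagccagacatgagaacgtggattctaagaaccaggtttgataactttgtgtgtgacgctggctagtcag
LEFTY2 17.1 kb upstream, chr1:225958214-225958513: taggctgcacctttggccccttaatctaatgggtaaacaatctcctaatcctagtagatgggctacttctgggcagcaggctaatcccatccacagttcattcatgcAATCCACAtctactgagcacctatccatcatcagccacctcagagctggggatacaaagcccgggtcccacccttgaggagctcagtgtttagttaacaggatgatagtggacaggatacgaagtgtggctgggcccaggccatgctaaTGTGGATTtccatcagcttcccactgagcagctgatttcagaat
NODAL 13.7 kb upstream, chr10:70455348-70455647: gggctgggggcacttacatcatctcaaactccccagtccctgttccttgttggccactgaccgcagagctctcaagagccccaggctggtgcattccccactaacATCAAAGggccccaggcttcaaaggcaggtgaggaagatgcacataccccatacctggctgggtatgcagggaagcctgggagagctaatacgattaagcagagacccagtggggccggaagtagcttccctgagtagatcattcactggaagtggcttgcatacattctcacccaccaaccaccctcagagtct
TDGF1 0.7 kb upstream, chr3:46576988-46577287: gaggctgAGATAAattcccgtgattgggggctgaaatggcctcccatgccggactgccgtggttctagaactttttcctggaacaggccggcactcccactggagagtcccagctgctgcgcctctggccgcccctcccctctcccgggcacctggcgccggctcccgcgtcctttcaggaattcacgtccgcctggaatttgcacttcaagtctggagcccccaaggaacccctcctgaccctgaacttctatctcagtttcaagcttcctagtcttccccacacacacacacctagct

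FOXH1 letters were found in 12 of the 129 regions around the 7 genes (9.3%) and in 2.22% of all 285909 regions, over windows of the same length. The 12 regions are spread over the surroundings of all 7 genes, and 3 of them had a peak in 1 library only. GATA letters were in 17.8% of the regions around the 7 genes and 16.4% of all regions, TCF/LEF letters in 5.43% and 4.04%, T-box letters in 4.65% and 2.45%, and POU octamers in 3.1% and 2.38%. The median GC content was 53.7% around the 7 genes and 50.7% over all regions. Of the 7 genes, 3 (NODAL, GDF3 and CER1) matched an entry of the RefSeq promoter table, and FOXH1 letters were in the CER1 promoter and in 1.37% of the 35116 promoters of the table. These matches describe letters in a window, not bound sites.

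The libraries held 55777 to 156179 peaks, and CM replicate 2 held the fewest. It also had the lowest background, 2.54 pileup reads against 3.13 to 4.62 in the others, and its weakest peak had a fold of 2.11 against 1.64 to 1.87. A site without a peak is therefore a site that did not pass the authors' threshold in that library, and the bar was highest in CM replicate 2. In bulk cells, fewer cells with an open site and less opening per cell cannot be told apart. Promoters of 6 of 6 hESC markers had peaks in both hESC libraries and 4 of 6 still did in both CM libraries. Among 6 cardiomyocyte markers, promoters of TNNT2, MYH6 and MYL7 had peaks in both CM libraries, and that of NPPA in CM replicate 1 only. Those of MYH7 and ACTN2 had none in any library. All these promoters were taken within 1 kb of the annotated gene start. Other starts of the marker genes are not reported, so a gene without a peak here may have one at another start. TNNT2 had a peak in all 8 libraries, and MYL7 already had peaks in both MES libraries. Peaks at these annotated gene starts thus distinguish the stages only in part.

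Around the 7 genes, 29 of 129 regions (22.5%) had a peak in all 8 libraries, against 9.83% of all regions. Of these 29 regions, 18 lay within 1 kb of the start of a protein-coding gene, often a neighbour. A peak in 1 library only was found for 32 regions (24.8%), against 40.7% of all regions. Peaks in both MES libraries and in none of the other 6 were found for 7 regions (5.43%, against 2.76%), of which 3 lay in the window of CER1. Peaks in both hESC libraries and in no other were found for 5 regions (3.88%, against 3.01%), of which 3 lay in the window of TDGF1. Peaks in both hESC libraries and in neither CM library were found for 21 regions (16.3%, against 13.5%), and the opposite pattern for 3 (2.33%, against 3.15%). No region had peaks in both CP libraries alone (0.729% of all regions) or in both CM libraries alone (1.05%), and 0 of 129 is near these shares. These shares are descriptions over regions and were not tested.

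**Figure D1:**
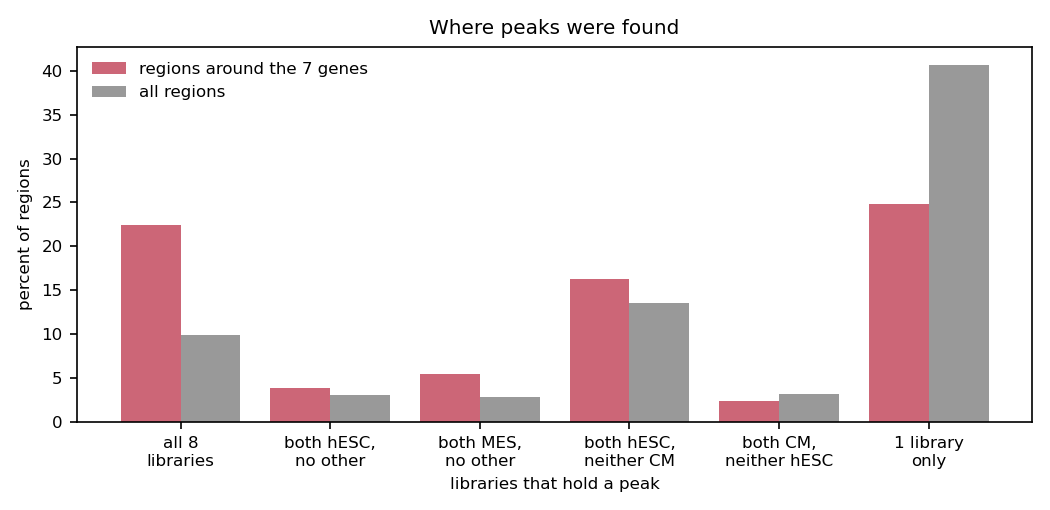
Percent of regions (vertical axis) by the libraries that held a peak (horizontal axis), for the 129 regions around the 7 genes (red) and for all 285909 regions (grey). Regions open in all 8 libraries make up 22.5% against 9.83%, and those in both MES libraries alone 5.43% against 2.76%.

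Values are given below as the fold of the pileup at the peak summit over the local background, in the order hESC, MES, CP and CM, with replicate 1 before replicate 2. Differences between stages are log2 differences of fold after each library was centred on its median over regions with peaks in all 8 libraries. A library without a peak entered with its lowest fold, so a difference against such a library depends on that floor. Adjusted p-values are from limma with Benjamini-Hochberg adjustment over all 169532 regions, 15394 promoters at gene starts or 15998 promoters at canonical starts with a peak in at least 2 libraries. A region with peaks in the 2 libraries of 1 stage and in no other passed this filter only through the stage where it was high, so its difference was bound to be large. Its values are given as a description, with the adjusted p of a fit without the filter beside that of the filtered fit. Of the 129 regions, 97 entered the test.

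At the starts of the genes, the inhibitor CER1 had the highest folds and the transcription factor FOXH1 the lowest. The CER1 start had folds of 10.7 and 8.43 in hESC, 8.86 and 10 in MES, then 6.01 and 6.01 in CP, followed by 5.83 and 5.03 in CM. The 4 libraries of hESC and MES lay above the 4 libraries of CP and CM without overlap. The log2 difference of CM against hESC was -0.78 ± 0.15 (SE, n = 2 and 2, limma adjusted p = 0.0298), and that of CP against MES was -0.67 ± 0.15 (limma adjusted p = 0.23). Both CER1 values rest on a peak in every library and come from the fit over promoters. In the fit over regions the same folds gave -0.59 for CM against hESC (limma adjusted p = 0.0852), without a call. The call of CM against hESC was lost without CM replicate 2, without either MES library and without either hESC library.

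The co-receptor gene TDGF1 has several annotated starts. At its canonical start the folds were 4.86 and 4.93 in hESC, 3.82 and 3.69 in MES, then 3.5 and 4.33 in CP, with no peak in either CM library. Over canonical starts, an alternative added after seeing the data, the log2 difference of CM against hESC was -1.27 ± 0.19 (SE, limma adjusted p = 0.00879). In the planned fit over regions the same folds gave -1.08 (limma adjusted p = 0.0365), a call that was lost without the filter. The annotated gene start, 3.3 kb further upstream, had a peak in all 8 libraries, with folds from 4.48 to 6.38. Its CM libraries (6.38 and 4.48) lay on either side of its hESC libraries (5.26 and 5.01), with a log2 difference of 0.10 ± 0.20 (limma adjusted p = 0.805). The starts of this gene thus gave separate values.

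LEFTY1, too, has starts that differed. The gene start of GENCODE, 22.2 kb upstream of the canonical one, had folds of 4.97 and 4.35 in hESC, 4.81 and 5.89 in MES, then 4.3 and 5.54 in CP, and no peak in either CM library. The log2 difference was -1.19 ± 0.17 for CM against hESC (SE, limma adjusted p = 0.0094) and -1.16 ± 0.17 for CM against CP (limma adjusted p = 0.0261). The call against hESC was lost when either hESC library was left out, and the call against CP when any library other than CM replicate 1 was. These values and calls are from the fit over promoters. In the fit over regions the same folds gave -1.01 for CM against CP (limma adjusted p = 0.0786), without a call. For CM against hESC they gave -1.01 (limma adjusted p = 0.0354), a call that was lost without the filter. The canonical start had a peak in all 8 libraries, with folds of 4.76 and 4.05 in hESC, 6.12 and 6.51 in MES, then 6.53 and 6.52 in CP, followed by 4.3 and 4.81 in CM. There the MES and CP libraries lay above those of hESC and CM without overlap, but no comparison passed the test (lowest limma adjusted p = 0.278).

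The remaining starts held weaker or patchier peaks. The canonical start of NODAL had a peak in all 8 libraries, with folds of 4.63 and 4.2 in hESC, 3.73 and 3.76 in MES, then 3.95 and 4.98 in CP, followed by 3.45 and 3.4 in CM. The CM libraries lay below the others before centring, but not below both MES libraries after it. The NODAL difference of CM against hESC, -0.33 ± 0.16 on the log2 scale, did not pass the test (limma adjusted p = 0.271). That of MES against hESC was -0.31 (limma adjusted p = 0.867). The annotated gene start of NODAL, 6.3 kb upstream, had no peak within 1 kb. The LEFTY2 start had no peak in hESC, 2.67 in MES replicate 1, 3.48 and 2.86 in CP, followed by 3.91 and 3.18 in CM (CM against hESC, 1.07 ± 0.34, limma adjusted p = 0.115). This is the opposite order to CER1, without a call. Near the GDF3 start, peaks were in both hESC libraries (4.04 and 3.26), MES replicate 2 (4.86) and CP replicate 2 (4.73). FOXH1 had weak peaks in hESC replicate 1 (2.38) and both MES libraries (2.06 and 2.24).

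**Figure D2:**
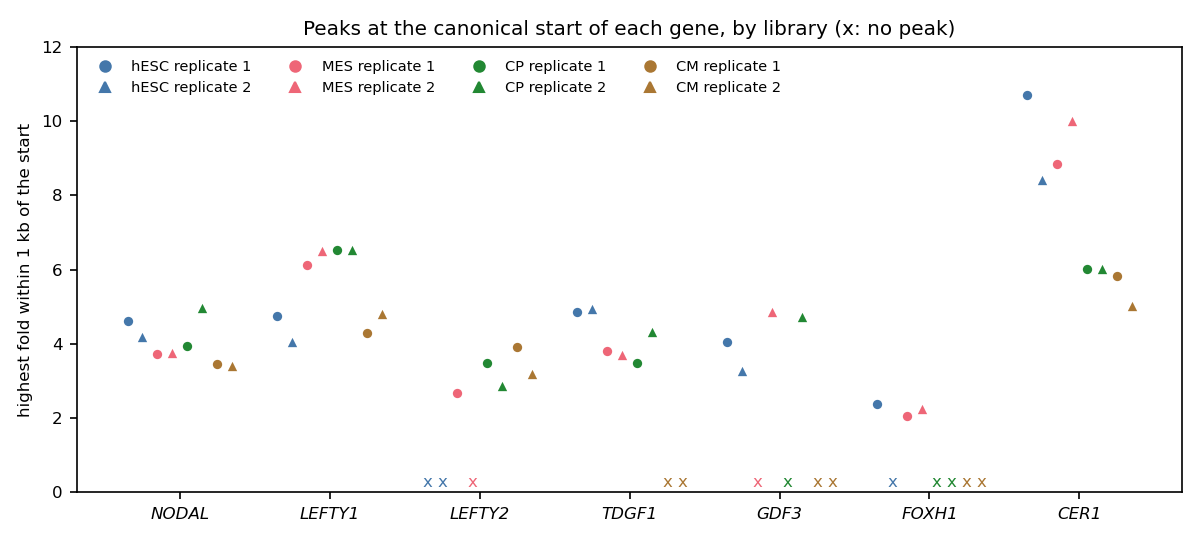
Highest fold within 1 kb of the canonical start (vertical axis) of each gene (horizontal axis) in the 8 libraries, with circles for replicate 1, triangles for replicate 2 and a cross where no peak was called. CER1 lies between 8.43 and 10.7 in hESC and MES and between 5.03 and 6.01 in CP and CM, and TDGF1 has no peak in either CM library.

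Over the starts of all 6 genes with a testable gene start, 0 were called for MES against hESC, where 0.0974% of all promoters were higher and 0.078% lower, and 0 of 6 had an unadjusted p under 0.05. For CP against MES, 0 of 6 were called (0.039% of all promoters higher, 0.123% lower), and CER1 alone had an unadjusted p under 0.05. For CM against CP, 1 of 6 was lower (0.552% of all promoters lower, 0.052% higher). For CM against hESC, 2 of 6 were lower, LEFTY1 and CER1 (2.79% lower, 0.922% higher). Over canonical starts, 2 of 7 were lower in CM than in hESC, TDGF1 and CER1, where 2.69% of all promoters were lower and 0.944% higher.

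CER1, which encodes a secreted antagonist of NODAL and BMP ligands, had a group of MES peaks upstream of it (gene at chr9:14719724-14722733, minus strand). Of the 16 regions in its window, 5 had peaks in both MES libraries and in neither hESC library, a pattern of 12 of the 129 regions around the 7 genes (9.3%) and 6.02% of all regions. The window held 10 and 13 peaks in the MES libraries against 4 and 4 in hESC, 6 and 5 in CP, followed by 3 and 3 in CM. The 2 MES libraries stood above the other 6 without overlap. The totals were 108340 and 156179 peaks in the MES libraries and 103118 and 156117 in hESC, and their part in the result was not tested.

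The region 24.4 kb upstream of CER1 (chr9:14746771-14747415), in FREM1, had folds of 4.25 and 4.98 in MES and no peak in the other 6 libraries. Its log2 difference was 1.31 ± 0.27 for MES against hESC (SE, limma adjusted p = 0.0184, and 0.0691 without the filter) and -1.26 for CP against MES (limma adjusted p = 0.0332, and 0.114 without the filter). The region 30.4 kb upstream (chr9:14752998-14753268), in an intron of FREM1, showed the same pattern, with 3.81 and 4.48 in MES and no peak elsewhere (MES against hESC, 1.15, limma adjusted p = 0.0261, and 0.12 without the filter). The region 0.7 kb upstream (chr9:14723293-14723657), next to the promoter shown above and holding GATA letters, had 4.3 and 4.75 in MES alone (1.28, limma adjusted p = 0.019, and 0.0747 without the filter). These 3 regions had peaks in MES alone, and none of their calls, for MES against hESC or for CP against MES, stood without the filter. The -log10 q of their MES peaks ran from 7.53 to 21.5, against a threshold of 2.

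Further peaks of this group were less exclusive. The region 18.9 kb upstream of CER1 (chr9:14741401-14741779) had 5.43 and 5.47 in MES and 4.18 in CP replicate 2, with a log2 difference of MES against hESC of 1.55 (limma adjusted p = 0.0278, and 0.0568 without the filter). The region 29.8 kb upstream had 5.57 and 5.61 in MES and 4.47 in CP replicate 1, and was not called. A peak 9.0 kb upstream had a fold of 7 in MES replicate 2 alone and holds FOXH1 letters. By contrast the region 45.9 kb upstream had a peak in all 8 libraries, with folds from 4.88 to 8.57. CER1 is also a marker of definitive endoderm, and 3 endoderm marker promoters were taken at their annotated gene starts. AFP had no peak there in any library. SOX17 had a peak in all 8 (3.31 to 4.17), and FOXA2 had 2.65 and 2.69 in hESC and 4.31 and 5.05 in MES. The summed fold of the 3 was 5.96 and 6.6 in hESC, 8.42 and 8.63 in MES, then 7.38 and 7.37 in CP, followed by 8.35 and 4.14 in CM, and its part in the CER1 result was not tested.

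The LEFTY genes lie next to each other, LEFTY1 at chr1:225886282-225911382 and LEFTY2 at chr1:225936598-225941383, both on the minus strand. Upstream of LEFTY2, an inhibitor that blocks the co-receptor complex, neighbouring regions had peaks at different stages. The region 17.1 kb upstream (chr1:225958111-225958593) had 5.4 and 6.17 in MES and no peak in the other 6 libraries. Its log2 difference was 1.63 for MES against hESC (limma adjusted p = 0.0128, and 0.0325 without the filter) and -1.59 for CP against MES (limma adjusted p = 0.0239, and 0.0561 without the filter). The region 7.9 kb upstream (chr1:225948734-225949505) had no peak in hESC, 6.03 and 6.64 in MES, then 4.08 and 3.79 in CP and no peak in CM. It was higher in MES than in hESC (1.77, limma adjusted p = 0.0136, and 0.0295 without the filter), and the CP libraries lay between.

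Another LEFTY2 region was open in hESC. The region 9.9 kb upstream had 6.64 and 5.66 in hESC, 4.21 and 3.46 in MES, 3.93 in CP replicate 2 and no peak in CM (CM against hESC, -1.41, limma adjusted p = 0.037, and 0.0563 without the filter). It lies between the regions 7.9 kb and 17.1 kb upstream. A region 34.9 kb upstream had a peak in all 8 libraries, with folds from 6.9 to 7.79.

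A region 1.7 kb downstream of the LEFTY2 start, over a LEFTY2 exon, had folds from 3.86 to 5.91 in hESC, MES and CP and no peak in CM (CM against hESC, -1.01, limma adjusted p = 0.0479). Of the 621 stretches of 75 bases, the read length, in this region, 175 (28.2%) also occur in LEFTY1. The authors' filter on mapping quality can remove such reads, so this value is uncertain, and the call was lost under 5 of 8 other settings. The regions named above upstream of LEFTY2 and at both LEFTY1 starts held no such stretch. The search covered only the canonical transcript of the other gene and 1 kb on either side. It did not reach the sequence further upstream, so it cannot show that reads of these regions map uniquely.

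**Figure D3:**
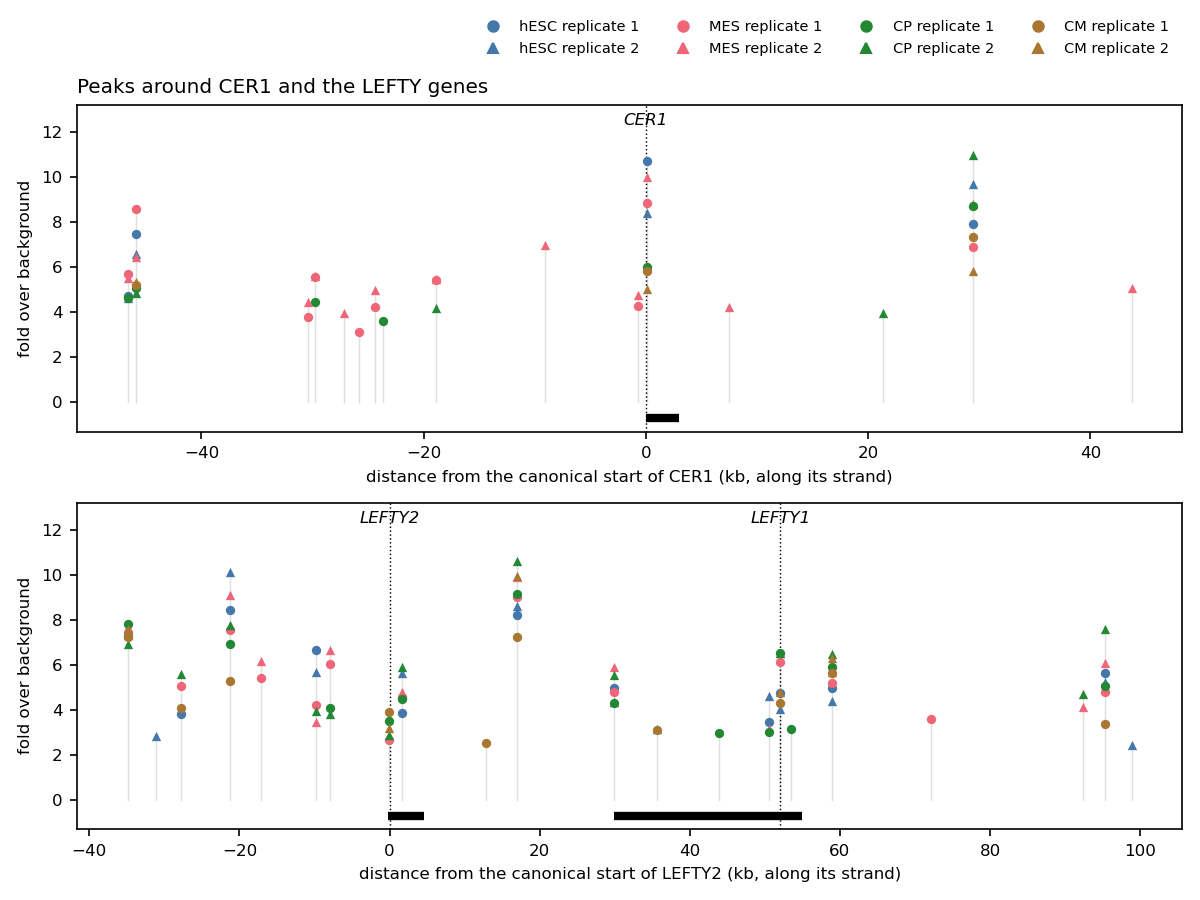
Fold over background (vertical axis) of each peak against its distance in kb from the canonical start of CER1 (top) or LEFTY2 (bottom), with stages as colours, circles for replicate 1, triangles for replicate 2 and black bars for the gene spans, leaving out 2 LEFTY regions that are not reported singly. The CER1 panel shows MES peaks without hESC peaks at -0.7, -18.9, -24.4 and -30.4 kb, and the LEFTY panel shows MES peaks at -17.1 and -7.9 kb.

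NODAL itself (chr10:70431936-70447951, minus strand) had no region that was called between MES and hESC. The intergenic region 13.7 kb upstream (chr10:70455147-70455710), which holds TCF/LEF letters, had folds of 5 and 5.41 in hESC, 4.84 and 4.63 in MES, then 3.61 and 3.67 in CP and no peak in CM. The stages lay in that order, from high to low, without overlap, with a log2 difference of CM against hESC of -1.17 ± 0.28 (SE, limma adjusted p = 0.0293, and 0.06 without the filter). The region 9.4 kb upstream had 2.9 and 3.06 in hESC, 4.75 and 5.53 in MES, then 2.99 and 4.48 in CP and 3.82 in CM replicate 1. Its MES libraries lay above all others, without a call. An intronic region 3.8 kb downstream of the start had peaks in MES alone, at 2.71 and 3.01, and was not called. The highest folds of the window were at the start of the neighbour EIF4EBP2, from 8.78 to 11.9 in the 8 libraries.

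GDF3 (chr12:7689784-7695775, minus strand), a ligand expressed in pluripotent cells, lies among the pluripotency genes of chromosome 12, next to DPPA3. The region 0.8 kb into the gene had 4.04 and 3.26 in hESC and no peak in the other 6 libraries (MES against hESC, -1.10, limma adjusted p = 0.0346, and 0.161 without the filter). The region 10.2 kb upstream (chr12:7705802-7706201) had the opposite pattern, with 4.53 and 3.87 in MES alone (1.17, limma adjusted p = 0.0303, and 0.121 without the filter). The region 28.3 kb downstream had 6.89 and 6.94 in hESC, 5.67 in MES replicate 2 and 3.42 in CP replicate 1, and was not called. No region of this window had a peak in all 8 libraries.

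TDGF1 lies within LRRC2 (TDGF1 at chr3:46574534-46582457, plus strand). In its window, 3 regions had peaks in hESC alone. The region 28.0 kb upstream (chr3:46549601-46549911) had 4.68 and 4.23 in hESC and no peak elsewhere (MES against hESC, -1.40, limma adjusted p = 0.0158, and 0.0544 without the filter). The region 31.7 kb upstream had 3.58 and 3.85 in hESC (-1.13, limma adjusted p = 0.026, and 0.133 without the filter). The region 7.7 kb downstream had 3.57 and 3.14 in hESC (-0.99, limma adjusted p = 0.0424, and 0.237 without the filter). All 3 lie in introns of LRRC2. The region 38.8 kb upstream (chr3:46538766-46539113), over an exon of LRRC2, went the other way, with no peak in hESC or MES, 4.79 and 9.85 in CP, followed by 5.6 and 9.02 in CM. It was higher in CP than in MES (1.95, limma adjusted p = 0.0259) and in CM than in hESC (2.26, limma adjusted p = 0.00917). The region passed the filter only through the stages where it was high. Both calls stood without the filter. That of CP against MES was lost with the replicate block (limma adjusted p = 0.0504) and depended on single libraries. The replicates of CP and of CM differed widely here, but lay above the earlier stages in all 4 libraries.

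FOXH1 (chr8:144473412-144475849, minus strand) lies among 13 other protein-coding genes within its window, and 12 of the 22 regions had a peak in all 8 libraries. The one region called was 8.5 kb upstream, in an intron of PPP1R16A, with folds of 6.35 and 6.94 in hESC, 6.25 and 8.11 in MES, then 4.32 and 4.76 in CP and no peak in CM. CM was lower than hESC (-1.52 ± 0.23, SE, limma adjusted p = 0.00729). This call held when each of 6 of the 8 libraries was left out, and was lost without either hESC library.

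**Figure D4:**
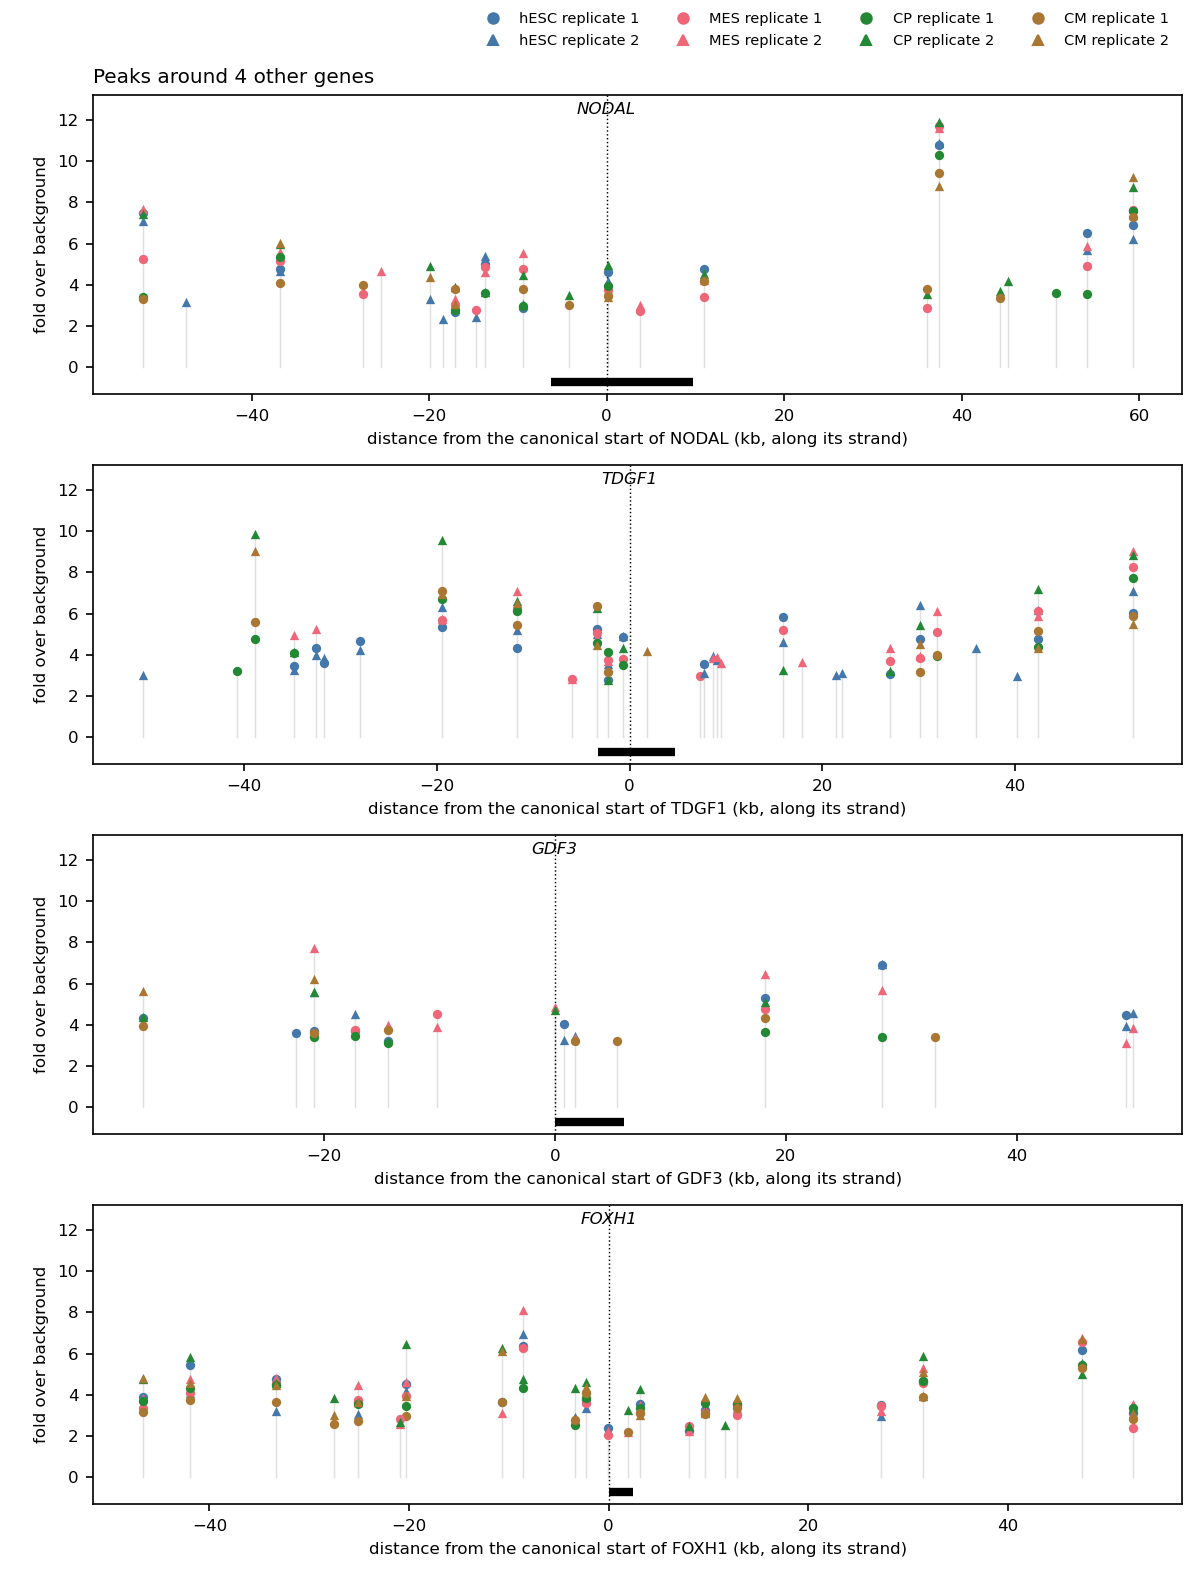
Fold over background (vertical axis) of each peak against its distance in kb from the canonical start of NODAL, TDGF1, GDF3 and FOXH1, with stages as colours, circles for replicate 1, triangles for replicate 2 and black bars for the gene spans. The CP and CM peaks 38.8 kb upstream of TDGF1, from 4.79 to 9.85, have no hESC or MES counterpart.

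Over the 97 tested regions, the share called stayed near that of all tested regions, or below it. For MES against hESC, 7 regions were higher (7.22%, against 7.56% of all regions) and 5 lower (5.15%, against 5.83%). The 7 higher regions were 4 at CER1, 2 upstream of LEFTY2 and 1 at GDF3. Of these 12 calls, 10 were of regions with peaks in 1 stage only, and without the filter 2 of the 12 stood, both upstream of LEFTY2. For CP against MES, 1 was higher (against 2.12%) and 4 lower (4.12%, against 5.52%), the latter being 3 CER1 regions and the LEFTY2 region 17.1 kb upstream, all 4 with peaks in MES alone, and without the filter 1 of these 5 calls stood, at TDGF1. For CM against CP, 0 were called (1.89% of all regions higher, 2.29% lower). An unadjusted limma p under 0.05 was found for 5 of 97, against 24657 of all 169532 regions. For CM against hESC, 1 was higher (1.03%, against 5.33%) and 7 lower (7.22%, against 10.2%), and 6 of the 7 had no peak in either CM library. Without the filter 4 regions were called for CM against hESC, 1 higher and 3 lower. The median log2 difference of the 97 regions was 0.23 for CM against hESC, against -0.10 over all regions. For MES against hESC both medians were -0.03, which is the value of any region without a peak in either stage and so describes the floors.

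The medians carry the difference in floors between libraries, since 2 libraries without a peak could differ after centring. With a common floor, an alternative chosen after seeing the data, 5 regions were higher in CM than in hESC (5.86% of all regions) and 15 lower (17.3%), and 3 were lower in CM than in CP (4.05% of all regions, with 0 higher against 2.22%). None of the calls made without it compared stages that both lacked peaks. The calls rest on few libraries. Over all regions too, the calls between MES and hESC were lost or almost all lost without a MES or a hESC library. Such losses therefore do not single out the regions described here. Leaving out either MES or either hESC library left 0 member calls between MES and hESC, and leaving out either CM library left 2. For CP against MES, the 5 calls became 8 without CP replicate 1 and 0 without any other library. For CM against hESC, the 8 calls became 0 without either hESC library, 1 without CM replicate 2, 4 without CM replicate 1, 4 and 5 without MES replicate 1 and 2, and 12 and 14 without CP replicate 1 and 2.

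Of 36 listed ligands, receptors, antagonists, SMADs, repressors and targets, 29 were tested, and limma called 0 in each of the 4 comparisons, with 1, 2, 1 and 11 unadjusted p-values under 0.05 for MES against hESC, CP against MES, CM against CP and CM against hESC. Over all 15394 promoters, 960, 1056, 2016 and 3464 had such a p, and the shares called were those given above for gene starts, so that 0 of 29 is near the background. The receptor gene ACVR1B had folds from 7.22 to 8.89 in the 8 libraries, and SMAD2, a transducer of the signal, from 6.42 to 7.03. NANOG, a pluripotency factor and target of the pathway, had 3.69 and 5.83 in hESC, 3.77 and 2.98 in MES and no peak in CP or CM. TGIF1, a repressor of SMADs, had peaks in hESC, MES and CP replicate 1, from 3.83 to 6.46, and none in the other 3 libraries. The promoters of FURIN, PCSK6, CFC1, FSTL3, NOMO1 and SMAD4 had no peak within 1 kb of the annotated gene start.

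By the distance between centred log2 folds over the 8 libraries, the promoters most like that of CER1 were those of FBXO40 (0.49), MARCHF10 (0.53) and MRPL21 (0.54). For the LEFTY1 gene start they were PRRT3 (0.20), ESX1 (0.34) and ERG (0.36). For the canonical start of NODAL they were PLCD1 (0.23), SULF2 (0.31) and VAMP5 (0.31). FOXH1, with peaks in 3 libraries, was not ranked, and none of the 7 genes was among the 3 nearest promoters of the other 6.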

How the data were processed

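ATAC-seq peak lists of 8 libraries were used as deposited. The authors mapped paired reads to hg38 with BWA-MEM (BWA 0.7.13), discarded secondary alignments and those of mapping quality 30 or less, and took out duplicate reads by Picard. They ran MACS2 2.1.0 on each library alone at a q-value of 0.01, without a fragment model. The shift was minus 100 bp and the extension 200 bp. A deposited peak carries a fold (a ratio of pileup to local background), a −log10 p-value and a −log10 q-value. Read counts per region were not used here, so weak sites below the threshold carry no value. Hi-C, RNA-seq and fetal heart data were not analysed here.

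Peaks sharing at least 1 bp were merged over the libraries, and a region took the highest fold per library. Log2 folds were centred as given in the report and fitted with limma 3.58.1 (trend and robust variance, 1 coefficient per stage) in R 4.3.3, for regions and for promoters (1 kb either side of the start of each protein-coding gene), with a threshold of 0.05. The test was checked on simulated data. Changes were put into regions of high mean fold, with noise sized from regions with peaks in all 8 libraries. The check therefore does not reproduce differences against libraries without a peak, on which most calls rest. A rule picked the regions at a member's start and others over 1 kb from every annotated coding gene start. The latter were the 2 of highest mean fold and those of lowest adjusted p for MES and for CM against hESC. Several picks of highest mean fold are not described here. Among them are the regions 19.5 kb upstream and 52.2 kb downstream of TDGF1, with peaks in all 8 libraries. The regions described thus lean towards those that changed. For 2 regions near the LEFTY genes, sequence and single values are not reported here, although they enter the counts. Regions beyond this rule were named after their values were seen. The members and lists were chosen with earlier results of these data known.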

Additional observations from a re-analysis of the deposited data

How the results depend on the processing

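Calls depended on how libraries without a peak were treated and on single libraries, and the cause was not tested. Calls over all regions also changed when single libraries were left out, so this dependence is not particular to the regions described here. Main counts of called regions around the 7 genes were 12 (MES against hESC), 5 (CP against MES), 0 (CM against CP) and 8 (CM against hESC). With a common floor the last 2 comparisons gave 3 and 20. With a fold of 1 where no peak was called, the last 3 gave 9, 6 and 13. Lists of equal length gave 4 for MES against hESC and 4 for CM against CP, and no centring gave 3 for CM against CP and 15 for CM against hESC. Without the filter on libraries, MES against hESC, CP against MES and CM against hESC gave 2, 1 and 4, and with regions open in all 8 libraries, which drops most regions, 0, 0 and 4. For CP against MES, summit windows gave 3 and windows of 20 kb 2. The replicate numbers showed little pairing of the libraries (correlation of deviations from -0.01 to 0.08 over regions and from -0.14 to 0.12 over promoters). With the replicate block, CP against MES gave 0, as it did over all 169532 regions. CM against hESC gave 5, where 8224 of all regions were higher and 13808 lower. With 1 library left out, where the lone library is assumed to vary like the other stages, the counts ran from 0 to 14, 0 to 8, 0 to 2 and 0 to 14.

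Of the promoters, 1 was called for CM against CP and 2 for CM against hESC. The first became 0 with peaks in all 8 libraries, with the replicate block, at canonical starts and over starts of all transcripts, and the second became 1 with peaks in all 8 libraries and over starts of all transcripts. With 1 library left out they ran from 0 to 1 and from 0 to 2, and MES against hESC and CP against MES stayed at 0.

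Some promoter differences changed sign. At canonical starts, LEFTY1 was 0.022 for CP against MES and 0.089 for CM against hESC, and TDGF1 was -0.83 for CM against CP and -1.27 for CM against hESC. Over starts of all transcripts, LEFTY1 was 0.028 for CP against MES and 0.020 for CM against hESC, and LEFTY2 was -0.072 for MES against hESC, -0.39 for CM against CP and -0.35 for CM against hESC. With a common floor FOXH1 was -0.091 for MES and -0.091 for CM against hESC, and with a fold of 1 it was -0.59 for CM against hESC. LEFTY2 for MES against hESC was -0.13 with lists of equal length and -0.14 with stricter peaks, FOXH1 -0.060 with stricter peaks, and TDGF1 for CM against CP -0.0039 without centring. With 1 library left out, MES against hESC ran from -0.055 to 0.58 for LEFTY2, from -0.21 to 0.30 for FOXH1, from -0.26 to 0.070 for CER1 and from -1.02 to 0.31 for GDF3. CP against MES ran from -0.019 to 0.22 for TDGF1 and from -0.70 to 0.63 for GDF3. CM against CP ran from -0.17 to 0.45 for TDGF1, from -0.17 to 0.16 for CER1 and from -1.00 to 0.12 for GDF3, and CM against hESC from -0.21 to 0.42 for TDGF1 and from -0.21 to 0.30 for FOXH1. Of these, LEFTY1 for CM against hESC alone was called in the main comparison.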
